A study of Mus musculus with 2 samples.

Results

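Eicosanoids are lipid signals made from arachidonic acid, and the genes described here are 10 of those that make and sense prostaglandins and leukotrienes: Ptgs1, Ptgs2, Ptges, Ptger2, Ptger4, Alox5, Alox5ap, Alox15, Ltc4s and Lta4h. They were taken by symbol from a table of 49585 mouse gene identifiers, and all 10 were found in it. Cyclooxygenases turn arachidonic acid into prostaglandin H2, from which a terminal synthase such as Ptges makes prostaglandin E2 (PGE2), a regulator of fever, vascular tone and myeloid cell activation. Lipoxygenases start the other branch, which leads through leukotriene A4 either to leukotriene B4, a chemoattractant for neutrophils, or to the cysteinyl leukotrienes, which act on smooth muscle and vessels. Tumour macrophages, neutrophils and eosinophils are all known producers of these lipids.

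Messenger RNA was sequenced from CD11b+ cells pulled with magnetic beads from digested subcutaneous tumours, which had been grown from mouse pancreatic cancer cell lines. The NRP2 KO group (labelled Test NRP2 KO) consisted of NRP2f/f CSF1R-iCRE mice on a BL6 background that were given tamoxifen daily once tumours were palpable. The Control group was of the same genotype, and the labels do not say what it was given in place of tamoxifen, if anything, so an effect of the drug and one of the deletion cannot be told apart. Both groups carry the floxed Nrp2 allele and the inducible recombinase, whose Csf1r promoter drives it in monocytes and macrophages, so other CD11b+ cells such as granulocytes need not have lost the gene. Tumours were harvested at 15 days, and RNA of 3 animals was pooled into 1 library per group. A single library per group leaves every difference below without replicates, and so without a p-value of its own.

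The NRP2 KO library held 68554172 counted reads and the Control library 64153676. Among genes seen in a single library, with more than 4 reads there, the median was 24 reads for the NRP2 KO library and 47 for the Control library, so a captured fragment was taken as worth that many reads. The 95% interval given after each ratio is exact (Clopper-Pearson) and counts such fragments. They cover counting error only, not differences between animals. The targeted gene Nrp2 had 1017 reads in the NRP2 KO library and 9686 in the Control library, 9.7-fold lower (6.94 to 13.8). Itgam, which encodes CD11b, was at 422 CPM (read counts scaled to normalised library size) in the NRP2 KO library and 294 in the Control library. The 9 macrophage markers were detected in both libraries and summed to 12961 CPM in the NRP2 KO library and 12288 in the Control library.

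All 10 genes reached 1000 reads, summed over the libraries. Ptges and Ltc4s, 2 of the 10, were higher by 2-fold or more in the NRP2 KO library and Alox15, 1 of the 10, was lower by 2-fold or more, with Ptgs2 and Ptger4 just inside the 2-fold line. Past 2-fold in the NRP2 KO library were 10.9% upward, 14.7% downward and 25.5% either way of the 14420 genes with at least 50 reads. Of the 9054 with at least 1000 reads, 4.53% were higher, 4.0% lower and 8.53% either. The median log2 ratio of the 10 genes was -0.05, beside -0.01 over all genes compared and 0.04 over those with at least 1000 reads, so the 10 were not shifted together. The interval lay above 1 for 3 genes (Ptges, Alox5ap and Ltc4s) and below 1 for 4 (Ptgs2, Ptger4, Alox15 and Lta4h), 7 of the 10. It lay above 1 for 12.7%, below 1 for 11% and on either side for 23.7% of genes with at least 50 reads, and for 19%, 15.1% and 34.1% of those with at least 1000.

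**Figure D1:**
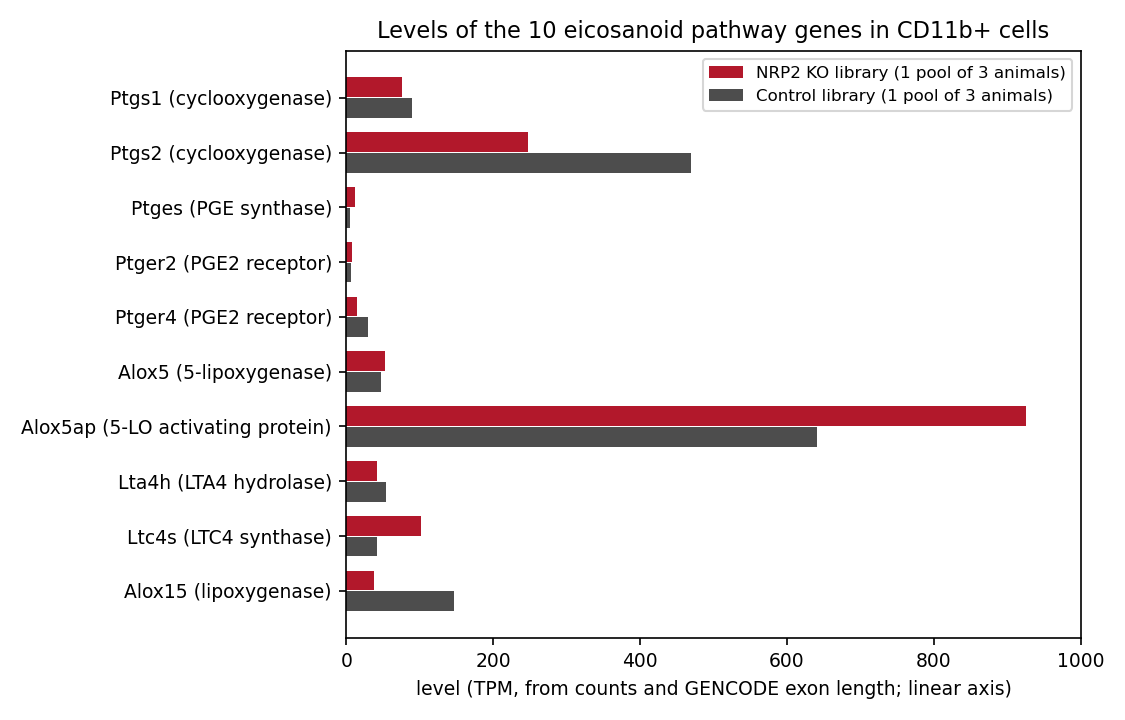
Levels of the 10 genes scaled to transcript length (TPM, linear axis), computed from the deposited counts and annotated exon lengths, with the NRP2 KO library in red above the Control library in grey (1 pooled library each, so no error bar). In the NRP2 KO and Control libraries Alox5ap stood at 926 and 641 TPM and Ptgs2 at 247 and 469 TPM, above the other 8 genes in both libraries.

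Per unit of transcript length, Alox5ap was the most abundant of the 10 genes in both libraries and Ptgs2 came next. In the NRP2 KO library the order went on with Ltc4s (102 TPM), Ptgs1 (75.5), Alox5 (51.9), Lta4h (41.8), Alox15 (37.7), Ptger4 (14.6), Ptges (12.0) and Ptger2 (7.34). In the Control library it went on with Alox15 (147 TPM), Ptgs1 (89.6), Lta4h (54.5), Alox5 (47.6), Ltc4s (41.8), Ptger4 (28.8), Ptger2 (5.70) and Ptges (4.44). Alox15 and Ltc4s thus exchanged places in the order. Exact Poisson 95% intervals on fragments overlapped between several neighbours. In the NRP2 KO library they overlapped for Ltc4s with Ptgs1, Alox5 with Lta4h, Lta4h with Alox15, Ptger4 with Ptges, and Ptges with Ptger2. In the Control library they overlapped for Lta4h with Alox5, Alox5 with Ltc4s, Ltc4s with Ptger4, and Ptger2 with Ptges.

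The inducible cyclooxygenase gene was lower in the NRP2 KO library, by more than the constitutive one. Ptgs2 encodes cyclooxygenase 2, which is switched on by inflammatory stimuli (ENSMUSG00000032487, GRCm38 chromosome 1, 150100031 to 150108227, plus strand). It had 27622 reads in the NRP2 KO library and 51279 in the Control library, or 413 and 780 CPM. It was 1.89-fold lower (1.74 to 2.06), a ratio lower than that of all but 4.72% of the genes with at least 1000 reads. Ptgs1, the cyclooxygenase present in most resting cells and in platelets (ENSMUSG00000047250, chromosome 2, 36230426 to 36252272, plus strand), had 7166 reads in the NRP2 KO library and 8306 in the Control library. Its ratio of 0.847 had an interval of 0.701 to 1.03, which includes 1. With upper-quartile factors, library totals or undivided reads the Ptgs1 interval lay below 1. The level of Ptgs2 relative to Ptgs1 was 3.27 in the NRP2 KO library and 5.24 in the Control library on the TPM scale. This quotient, which does not depend on how the libraries are scaled, was 1.6-fold lower in the NRP2 KO library (exact conditional 95% interval 1.3 to 1.97).

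Ptges, the inducible microsomal synthase that turns prostaglandin H2 into PGE2, went the other way (ENSMUSG00000050737, chromosome 2, 30889471 to 30929863, minus strand). It had 1156 reads in the NRP2 KO library and 417 in the Control library, or 17.3 and 6.35 CPM, and was 2.72-fold higher (1.32 to 6.35). The Control value rests on about 8.87 fragments, the fewest of any of the 10 genes. Relative to Ptgs2, Ptges stood at 0.0488 on the TPM scale in the NRP2 KO library and 0.00947 in the Control library, a quotient 5.15-fold higher (2.44 to 11.8). The genes of the 2 enzymes of consecutive steps to PGE2 thus differed in opposite directions between the libraries. With 2 times the reads per fragment the interval of Ptges included 1.

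The PGE2 receptors EP2 and EP4 both raise cyclic AMP, and their genes also parted. Ptger4 (ENSMUSG00000039942, chromosome 15, 5206661 to 5244187, minus strand) had 2369 reads in the NRP2 KO library and 4573 in the Control library, or 35.4 and 69.6 CPM. It was 1.97-fold lower (1.47 to 2.63). Scaled by upper-quartile factors or by library totals alone, it passed the 2-fold line (log2 ratios of -1.05 and -1.04). Ttc33 overlaps it on the opposite strand, and the sources used here do not say if counting was strand-specific. Ttc33 had 1668 reads in the NRP2 KO library and 913 in the Control library, so its own difference ran the other way. Ptger2 (ENSMUSG00000037759, chromosome 14, 44988195 to 45003820, plus strand) had 931 reads in the NRP2 KO library and 707 in the Control library. Its ratio of 1.29 had an interval of 0.697 to 2.52, so no difference was detectable at this depth. Antisense genes overlap Ptger2 (Gm17173, 57 reads in the NRP2 KO library and 0 in the Control library) and Ltc4s (Gm26542, 40 and 100 reads), each with few reads beside the gene's own. The level of Ptger4 relative to Ptger2 was 1.99 in the NRP2 KO library and 5.05 in the Control library on the TPM scale, 2.54-fold lower in the NRP2 KO library (1.27 to 5.29).

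At the entry to the leukotriene branch, Alox5ap was higher in the NRP2 KO library and Alox5 was not distinguishable from equal. Alox5, or 5-lipoxygenase, makes leukotriene A4 (ENSMUSG00000025701, chromosome 6, 116410077 to 116461178, minus strand). It had 5208 reads in the NRP2 KO library and 4666 in the Control library, a ratio of 1.1 with an interval of 0.86 to 1.4. Alox5ap encodes the membrane protein FLAP, which presents arachidonic acid to 5-lipoxygenase (ENSMUSG00000060063, chromosome 5, 149264767 to 149288153, plus strand). It had 32118 reads in the NRP2 KO library and 21725 in the Control library, or 480 and 331 CPM. This was 1.45-fold higher (1.31 to 1.62), below the 2-fold line but with an interval well clear of 1. The level of Alox5ap relative to Alox5 was 17.8 in the NRP2 KO library and 13.5 in the Control library on the TPM scale, 1.32-fold higher with an interval of 1.01 to 1.72.

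The genes of 2 enzymes that compete for leukotriene A4 differed in opposite directions, by little for Lta4h. Ltc4s, which joins it to glutathione to start the cysteinyl leukotrienes (ENSMUSG00000020377, chromosome 11, 50236461 to 50238616, minus strand), had 2523 reads in the NRP2 KO library and 1012 in the Control library. It stood at 37.7 and 15.4 CPM and was 2.45-fold higher (1.53 to 4.09), above 97.6% of the genes with at least 1000 reads. Lta4h, the hydrolase that makes leukotriene B4 (ENSMUSG00000015889, chromosome 10, 93453411 to 93484875, plus strand), had 6224 reads in the NRP2 KO library and 7933 in the Control library. It was 1.3-fold lower (1.06 to 1.58), and with 2 times the reads per fragment its interval included 1. The level of Ltc4s relative to Lta4h was 2.44 in the NRP2 KO library and 0.768 in the Control library on the TPM scale, with the TPM intervals of both genes overlapping in the Control library. This quotient was 3.18-fold higher in the NRP2 KO library (1.86 to 5.38).

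Alox15, a lipoxygenase of eosinophils and some resident macrophages that makes hydroxy acids and precursors of lipoxins (ENSMUSG00000018924, chromosome 11, 70344152 to 70352031, minus strand), had the largest fold of the 10. It had 2260 reads in the NRP2 KO library and 8589 in the Control library, or 33.8 and 131 CPM. It was 3.87-fold lower (3.0 to 5.02), and 0.707% of the genes with at least 1000 reads had a lower ratio. It was the single gene of the 10 whose whole interval lay past 2-fold. Relative to Alox5 it stood at 0.726 in the NRP2 KO library and 3.08 in the Control library on the TPM scale, 4.24-fold lower (2.98 to 6.11).

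**Figure D2:**
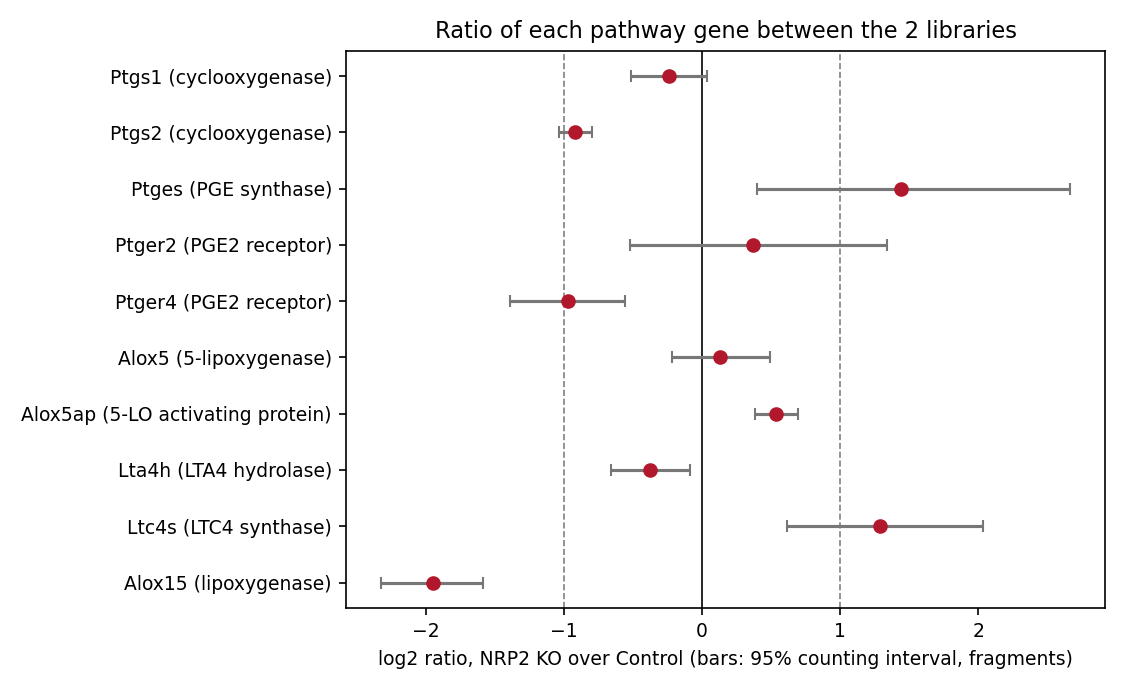
Log2 ratio of each gene, NRP2 KO library over Control library, with the 95% interval of counting error on fragments. The solid line marks equal levels and the dashed lines 2-fold. Alox15 lies wholly beyond the left dashed line, Ptges and Ltc4s lie to the right of the right one with intervals that cross it, and the intervals of Ptgs1, Ptger2 and Alox5 include equal levels.

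In bulk RNA, fewer cells of a type and less RNA per cell cannot be told apart, and markers of several cell types differed beside these genes. Marker genes at 0 in one library are counted below by their fitted ratio, which depends on the prior and is no bound. Of 6 eosinophil markers, 5 had at least 50 reads, 3 were lower by 2-fold or more and 1 higher, and they summed to 62.8 CPM in the NRP2 KO library and 136 in the Control library, 2.16-fold lower. The eosinophil receptors Ccr3 and Siglecf were 3.53-fold (2.5 to 5.03) and 2.61-fold (1.77 to 3.87) lower. Epx, the eosinophil peroxidase, was at 0 in both libraries, and Ear6 was 5.52-fold higher (2.0 to 21.2). Their part in the lower Alox15 was not tested. Conventional dendritic cell markers, 6 of 7 at least 2-fold lower, summed to 93.2 CPM in the NRP2 KO library and 273 in the Control library. Of these, Xcr1 was at 0 in the NRP2 KO library with 111 reads in the Control library, and its interval includes 1. Monocyte markers, 4 of 8 at least 2-fold lower and 2 higher, summed to 548 CPM in the NRP2 KO library and 1148 in the Control library. The part of either list in the lower Ptgs2 and Ptger4 was not tested.

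Neutrophils express Alox5ap and Ptgs2 strongly. Their 10 markers summed to 1327 CPM in the NRP2 KO library and 1060 in the Control library. Of the 9 with at least 50 reads, 3 were at least 2-fold higher, namely Ngp, Ltf and Ly6g. Ngp had 1033 reads in the NRP2 KO library and 2 in the Control library, with an interval that starts at 5.47-fold higher. Ltf had 1078 and 334 reads in the NRP2 KO and Control libraries and was 3.17-fold higher (1.43 to 8.26). Ly6g and Camp were at 0 in the Control library, with 96 and 18 reads in the NRP2 KO library. Both are within the limit that a Control count of 0 allows (141 reads). S100a8 and S100a9 had ratios of 1.93 and 1.52. Csf3r, Cxcr2 and Mmp8 had ratios of 0.987, 0.987 and 0.912 with intervals that include 1, and Retnlg 0.805 (0.718 to 0.904). Mast cells and basophils are known for Ltc4s. Their 9 markers summed to 33.6 CPM in the NRP2 KO library and 32.5 in the Control library. Kit, with 721 reads in the NRP2 KO library and 1250 in the Control library, weighs most in these sums. The median log2 ratio of the 8 markers with at least 50 reads was 0.51, and 3 of them were at least 2-fold higher. These were Cpa3, Tpsab1 and Mcpt8. Tpsab1, with 379 reads in the NRP2 KO library and 57 in the Control library, was 6.53-fold higher (1.15 to 159). The intervals of Cpa3 and Mcpt8 include 1. Ms4a2 and Mcpt8 were at 0 in the Control library and had 27 and 81 reads in the NRP2 KO library, also within the limit for a Control count of 0. Platelet markers, whose cells carry Ptgs1, summed to 318 CPM in the NRP2 KO library and 367 in the Control library, with Gp9 and Gp1ba at 0 in both. Pf4 gave most of these sums, at 300.2 CPM in the NRP2 KO library and 337 in the Control library, and Ppbp was 2.72-fold lower (1.53 to 4.92). Adipocyte markers summed to 112 CPM in the NRP2 KO library and 12.6 in the Control library, all 6 at least 2-fold higher. Adipoq, Plin1 and Retn were at 0 in the Control library, and the intervals of Plin1 and Retn include 1. What these lists contribute to the higher Alox5ap, Ltc4s and Ptges was not tested.

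T cell, B cell and endothelial markers were lower in the NRP2 KO library. Their sums were 18.3, 4.87 and 21.5 CPM in the NRP2 KO library and 66.8, 24.2 and 85.4 CPM in the Control library. Of their genes, 7 of 7, 4 of 5 and 5 of 5 were at least 2-fold lower. Pax5 was at 0 in the NRP2 KO library, with an interval that includes 1. Epithelial tumour cell markers (3 of 6 lower) summed to 121 CPM in the NRP2 KO library and 188 in the Control library. Fibroblast markers (1 of 5 lower) summed to 119 CPM in the NRP2 KO library and 208 in the Control library. Tumour cells and fibroblasts can also express Ptgs2 and Ptges, and their part was not tested.

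**Figure D3:**
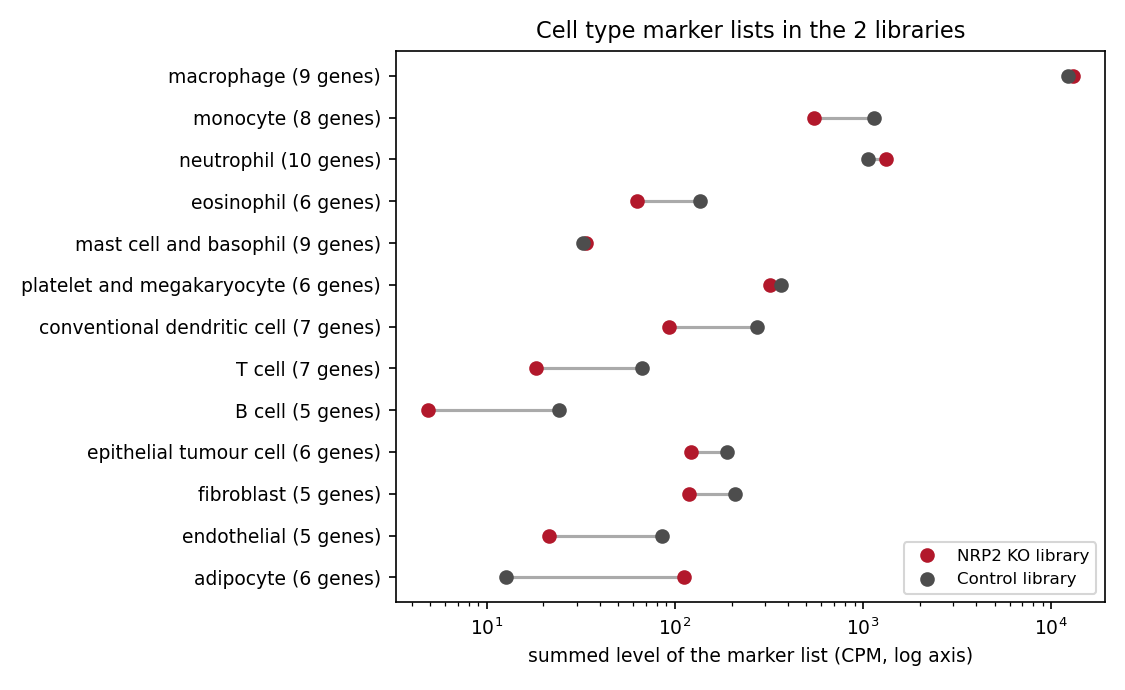
Summed level of each cell type's marker list in CPM (log axis), with the NRP2 KO library in red and the Control library in grey. The macrophage sums nearly coincide, at 12961 CPM in the NRP2 KO library and 12288 in the Control library, eosinophil and dendritic cell lists are lower in the NRP2 KO library, and the adipocyte list is higher.

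Bases before the RefSeq start are shown for the 4 genes with the largest folds among those that the RefSeq promoter table (GRCm38.p6) holds, 2 that were higher and 2 that were lower. The table matched 8 of the 10 genes, not Alox15 and Alox5ap. Each line gives the 120 bases before that start, 5′ to 3′ on the gene's strand. For Ptgs2 and Ptger4 they adjoin the gene intervals given above, which come from GENCODE. The RefSeq starts of Ptges and Ltc4s lie inside the GENCODE intervals, so all of the Ptges bases and part of the Ltc4s bases lie within the wider gene. Capitals mark a GC box (GGGCGG, or CCGCCC on the other strand) or a CCAAT box (CCAAT, or ATTGG).
Ptges, chr2:30903298-30903417, minus strand: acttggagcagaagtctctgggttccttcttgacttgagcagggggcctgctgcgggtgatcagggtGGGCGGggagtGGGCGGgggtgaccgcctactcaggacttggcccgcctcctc
Ltc4s, chr11:50238533-50238652, minus strand: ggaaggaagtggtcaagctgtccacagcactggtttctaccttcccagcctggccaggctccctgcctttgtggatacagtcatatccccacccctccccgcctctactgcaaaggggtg
Ptger4, chr15:5244188-5244307, minus strand: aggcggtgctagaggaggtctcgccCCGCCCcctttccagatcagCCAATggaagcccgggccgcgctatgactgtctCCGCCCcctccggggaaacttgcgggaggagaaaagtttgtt
Ptgs2, chr1:150099911-150100030, plus strand: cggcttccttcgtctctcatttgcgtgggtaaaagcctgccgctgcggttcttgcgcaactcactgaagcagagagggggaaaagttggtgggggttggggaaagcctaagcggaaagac

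Within 250 bases before the RefSeq start, the GC box was found at 2 places in Ptges, which was higher, at 4 in Ptger4 and 1 in Ptgs2, which were lower, and at 0 in Ltc4s, which was higher. It occurs in 32.7% of the 32851 windows of that length in the table. The CCAAT box was found once in Ptger4 and occurs in 33.8% of the windows. TATAAA (12.4% of windows), the cyclic AMP element core TGACG (17.8%), the E-box CACGTG (6.02%) and the AP-1 site TGANTCA (6.75%) were searched on both strands too and matched none of the 4 windows. Bases after the RefSeq start were not searched, so a promoter may hold such a site outside its window.

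Other genes of the pathway came from a list of 49, all found in the count table. Of these, 33 reached 50 reads in all, 6 had fewer and 10 had 0 in both, among them the receptors Ptgdr, Ptgdr2, Ptger3, Ptgfr and Tbxa2r and the synthase Ptgds. Past 2-fold among the 33 were 4 upward and 5 downward (10.9% and 14.7% of all genes compared), with a median log2 ratio of -0.18. Pla2g4c, Ptgis and Aloxe3 were at 0 in one library and within the limit that a count of 0 allows (3 fragments, 72 reads in the NRP2 KO library and 141 in the Control library). With these 3 at their bounds the counts were 3 and 3 and the median -0.01. Over the 14420 genes compared, held at bounds likewise, the counts were 1194 upward and 1745 downward, with a median of 0. Both the size rule and an interval that excludes 1 were met by Dpep2 and Hpgd, and with upper-quartile factors or library totals by Ggt5 as well (log2 ratios of -1.06 and -1.05).

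Upstream of both branches, Pla2g4a, the cytosolic phospholipase that frees arachidonic acid, was at 53.4 CPM in the NRP2 KO library and 74.0 in the Control library, 1.39-fold lower (1.07 to 1.79). The terminal prostanoid synthases with at least 1000 reads were below or near equal levels. Prxl2b, a prostaglandin F synthase, was 1.74-fold lower (1.18 to 2.57) and Tbxas1, the thromboxane synthase, 1.18-fold lower (1.04 to 1.34). For Hpgds, which makes prostaglandin D2, Ptges2, Ptges3 and Akr1b3 the ratios were 0.871, 0.976, 0.813 and 0.882, with intervals that include 1. Ptges was therefore the one PGE synthase gene with a ratio past 2-fold, where Ptges2 and Ptges3, the other 2 genes ascribed that activity, were not.

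Of the genes that end prostaglandin signalling, Hpgd, the dehydrogenase that inactivates PGE2, had 15 reads in the NRP2 KO library and 467 in the Control library. This was 31.7-fold lower by reads, with an interval that starts at 3.24-fold, since 15 reads are under 1 fragment. Ptgr1, a reductase that acts on the oxidised products and on leukotriene B4, was 1.72-fold higher (1.24 to 2.44). Ptgr2, a related reductase, and Abcc4, an exporter of PGE2, had ratios of 1.22 and 1.2 with intervals that include 1. Slco2a1, the uptake carrier, had 65 and 183 reads in the NRP2 KO and Control libraries, too few for an interval that excludes 1.

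In the cysteinyl branch beyond Ltc4s, Dpep2, a dipeptidase that turns leukotriene D4 into E4, was at 283 CPM in the NRP2 KO library and 106 in the Control library, 2.67-fold higher (2.24 to 3.2). Ggt5, the gamma-glutamyl enzyme of the step before it, was 1.98-fold lower (1.32 to 2.98), at 18.3 CPM in the NRP2 KO library and 36.3 in the Control library. The genes of the steps on both sides of Ggt5 were thus higher and Ggt5 itself lower. Abcc1, which exports leukotriene C4, was level at 96.4 CPM in the NRP2 KO library and 96.2 in the Control library (ratio 1.0, 0.812 to 1.24). Mgst2 and Mgst3, microsomal glutathione transferases, had ratios of 2.63 (0.858 to 11.1) and 1.09 (0.581 to 2.16). Cyp4f18, which inactivates leukotriene B4 in mice, was at 291 and 273 CPM in the NRP2 KO and Control libraries, a ratio of 1.07 (0.943 to 1.21). Of the receptors, Cysltr1 for cysteinyl leukotrienes was 1.61-fold lower (1.22 to 2.12) and Ltb4r1 for leukotriene B4 had a ratio of 0.729 (0.512 to 1.04). Cysltr2, the other cysteinyl leukotriene receptor, had 220 reads in the NRP2 KO library and 73 in the Control library, a ratio of 2.96 with a wide interval of 0.538 to 43.4.

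**Figure D4:**
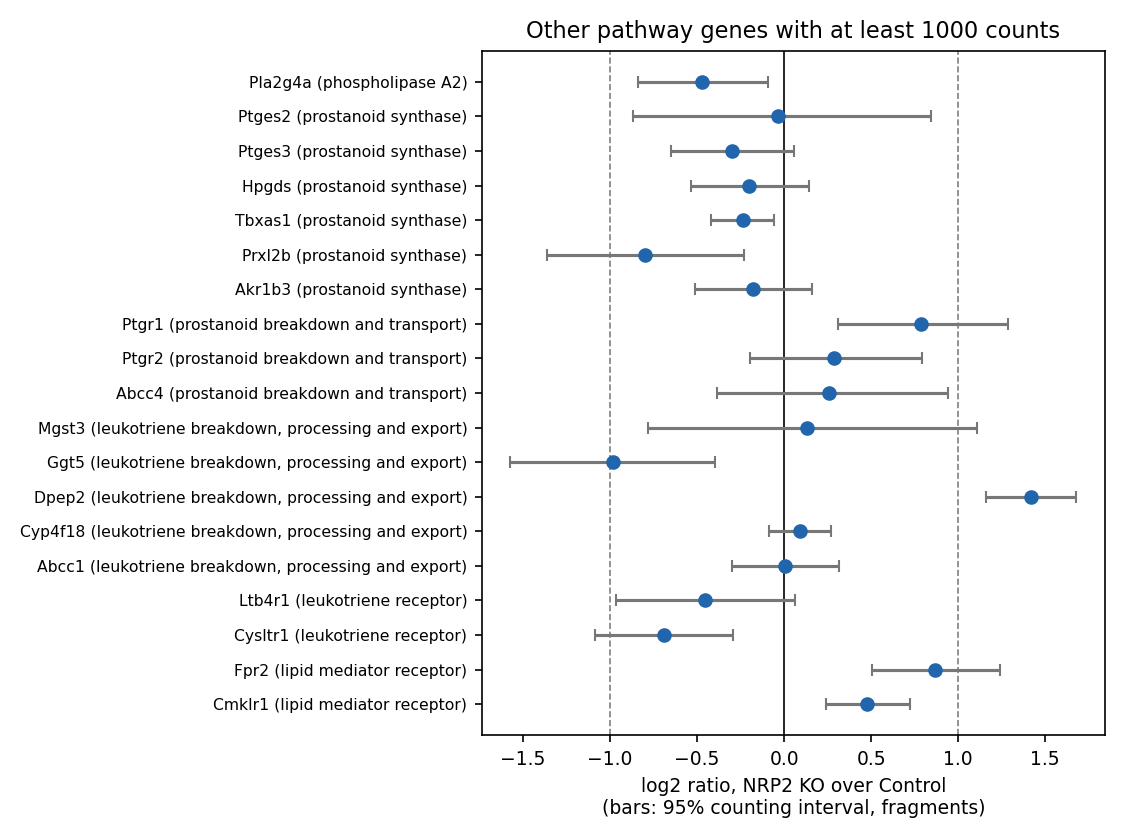
Log2 ratio, NRP2 KO library over Control library, of the 19 other pathway genes that reached 1000 reads in all, with 95% intervals of counting error on fragments and dashed lines at 2-fold. Dpep2 is the one gene past 2-fold. The intervals of Ptgr1, Fpr2 and Cmklr1 also lie wholly to the right of equal levels, and those of Pla2g4a, Tbxas1, Prxl2b, Ggt5 and Cysltr1 wholly to the left. The intervals of the other genes include equal levels.

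In the authors' deposited table, which gives a p-value from 1 library per group, Alox15 had a log2 fold change of -1.94 with a standard error of 0.709, a p-value of 0.00621 and an adjusted p-value of 0.813. The authors' deposited table gave Ltc4s 1.3 ± 0.722, Ptges 1.46 ± 0.911, Ptgs2 -0.91 ± 0.484 and Ptger4 -0.96 ± 0.588 on the log2 scale (standard errors). The lowest adjusted p-value of any of the 18864 genes tested in the authors' deposited table was 0.331, so none of them passed 0.05 there, while 794 had an unadjusted p-value under 0.05.

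**Figure D5:**
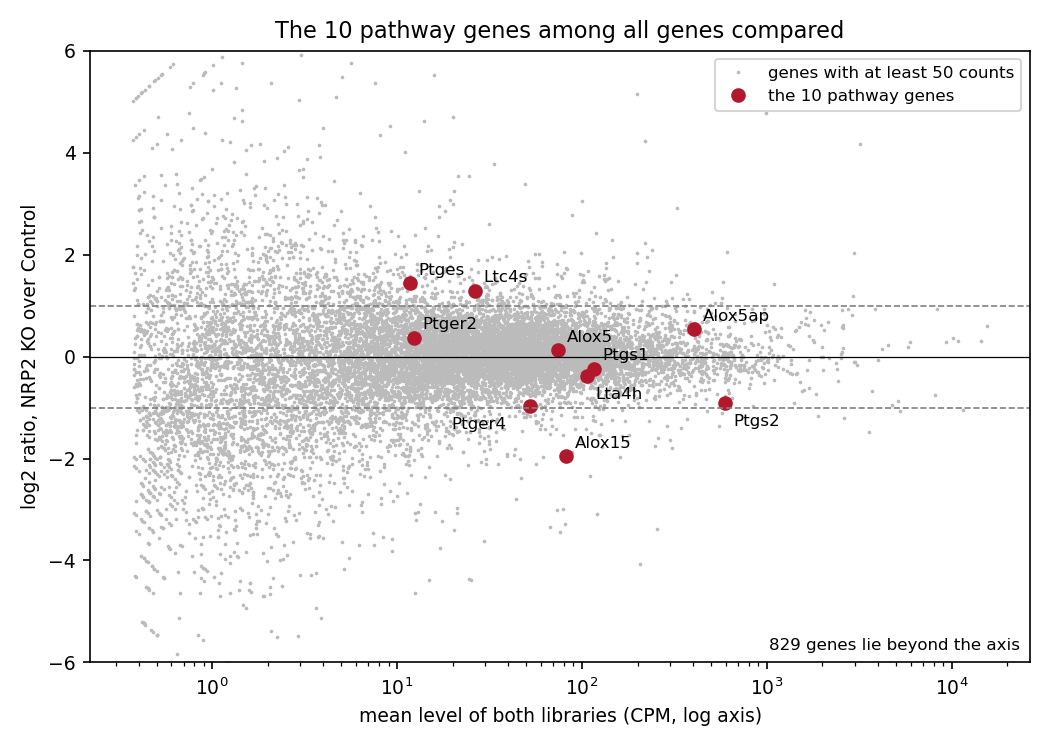
Log2 ratio, NRP2 KO library over Control library, against the mean level of both libraries in CPM (log axis) for the 14420 genes with at least 50 reads, with the 10 pathway genes in red and dashed lines at 2-fold (829 genes lie beyond the axis limit of 6). The spread of all genes narrows with level, Alox15 lies low, with 0.707% of genes with at least 1000 reads below it, and Ptges and Ltc4s lie above 98.2% and 97.6% of them.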

How the data were processed

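Per the labels' protocols, CD11b+ cell RNA went into libraries with the Illumina TruSeq stranded kit. Cutadapt, HISAT2, featureCounts and GRCm38 are named in the submitters' processing notes, with settings and annotation release not given in the sources used here. The deposited counts are whole numbers per Ensembl gene, from read 1 per the file headers. Their deposited comparison table holds a signal (the counts divided by 1 constant per library, as a check of the values showed), a log2 fold change with its standard error, a score (the first divided by the second), and raw and adjusted p-values.

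From the counts, TMM factors (edgeR 4.0.16, R 4.3.3) were computed on 14420 genes that reached 50 reads in all and were 0.976 for the NRP2 KO library and 1.02 for the Control library. Log2 ratios used a prior of 0.5 counts per library. TPM used exon lengths of GENCODE M21 (GRCm38). That annotation gave a symbol for 49326 of 49585 identifiers, and Prxl2b was matched through its older symbol. With 1 library per group no test was run, and the ratio and interval code was checked on simulated data. The simulation used the same reads per fragment that the intervals assume, so it checks the code and not that assumption. Read duplicates were not removed by molecular identifiers, so intervals cover counting error only. Alternatives were upper-quartile, DESeq2 1.42.0 and total scaling, a prior of 5, other read minimums, undivided reads and 2 times the reads per fragment. The 10 genes, the wider list, the marker lists and the 6 gene pairs were chosen with earlier results of these data known. Named genes were the 10 genes, wider-list genes with at least 1000 reads or at least 2-fold with an interval excluding 1, and marker lists. Genes named outside that rule were chosen after their values were seen. Among the marker lists these were Ear6, Ccr3, Siglecf, S100a8, S100a9, Csf3r, Cxcr2, Mmp8, Retnlg, Ngp, Ltf, Cpa3, Tpsab1, Ppbp, Pf4 and Kit. The others were Slco2a1, Cysltr2, Mgst2, Dpep1, genes listed at 0 and overlapping genes.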

Additional observations from a re-analysis of the deposited data

How the results depend on the processing

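Each of the 10 log2 ratios was recomputed under 3 other scalings and a prior of 5 counts, and all 40 values kept their direction and stayed within the interval of the gene. Another scaling shifts all 10 by nearly the same small amount, and a prior of 5 is small beside 1000 reads. These settings could hardly have given another outcome, so they say little about how firm the ratios are. The count of genes among the 10 at least 2-fold lower was 2 in place of 1 with upper-quartile factors and with library totals. Ptger4 was added, at log2 ratios of -1.05 and -1.04 in place of -0.97. The count at least 2-fold higher stayed at 2 under all alternatives run. With upper-quartile factors, library totals or undivided reads the interval of Ptgs1 lay below 1, so 5 genes in place of 4 did. With undivided reads the interval excluded 1 for 5 genes that were higher, in place of 3, because the unit counted is smaller. With 2 times the reads per fragment the intervals of Ptges and Lta4h included 1 as well. Over all genes, 4140 were at least 2-fold higher and 3266 lower with no filter on counts, and 410 and 362 with at least 1000 reads, where 1566 and 2118 were counted with at least 50. In the wider list 8 were higher with no filter on counts, and 1 higher and 0 lower with at least 1000 reads, since fewer genes enter. With upper-quartile factors and with library totals 7 of that list were lower in place of 5, with Ggt5 and Dpep1 added. Depth limits Ptges and Ptger2 most, with 8.87 and 15.0 Control fragments. No paired analysis was possible because each group has 1 library.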

Other observations

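The 2 receptors listed here for lipids that are known to dampen inflammation were higher in the NRP2 KO library. Of all genes with at least 1000 reads, 19% had an interval above 1. Fpr2, which binds lipoxin A4 and formyl peptides, was at 104 CPM in the NRP2 KO library and 57.0 in the Control library, 1.82-fold higher (1.42 to 2.37). Cmklr1, which binds chemerin and resolvin E1, was at 191 CPM in the NRP2 KO library and 137 in the Control library, 1.39-fold higher (1.18 to 1.65). Alox15, which encodes an enzyme of lipoxin synthesis, was 3.87-fold lower in the same library. A link between the receptors and Alox15 was not tested.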
